A study of Mus musculus with 7 samples.

Results

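The SR proteins and the heterogeneous nuclear ribonucleoproteins (hnRNPs) are the large families of RNA-binding proteins that decide which exons of a transcript are spliced together. The 38 genes described here are a list of gene names drawn up with earlier results of these data known: 16 SR and SR-related proteins and 22 hnRNPs, among them Raly, Ptbp1 and Ptbp3. All 38 were found among the 39179 gene IDs of the table and all 38 were among the 12813 genes tested. They were measured by RNA sequencing in LSK cells, the lineage-negative, Sca-1 and Kit positive bone marrow fraction that holds blood stem cells and multipotent progenitors, sorted by flow cytometry from mice of strain C57/BL6 aged 7 weeks. The 4 control libraries came from Vav1Cre mice and the 3 Jmjd1c libraries from Jmjd1c f/f Vav1Cre mice. Both groups thus carry the Cre transgene, which the Vav1 regulatory sequence drives throughout the blood lineage, and the groups differ in the floxed Jmjd1c gene, which encodes a JmjC-domain protein of the histone H3 lysine 9 demethylase family. Nothing in the labels ties a library to its own animal, so p-values reflect only how far these 7 libraries spread, and that spread may be technical.

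SR proteins carry RNA recognition motifs and a tail rich in arginine-serine repeats. Bound to exonic enhancers, they recruit the early spliceosome, and kinases of the SRPK and CLK families phosphorylate the tail. The hnRNPs coat nascent transcripts, and many of them silence splice sites, so that both families often act against each other on the same exon. Many members limit their own level by including a so-called poison exon, which sends their transcript to nonsense-mediated decay. In blood, mutations of SRSF2 are a recurrent feature of myelodysplastic syndromes.

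Values are normalized read counts: reads per gene divided by a size factor of the library. The recovered reads in genes ran from 4303712 to 6436519 per library. Jmjd1c itself was 458, 466, 516 and 512 in controls 1 to 4 and 294, 244 and 254 in Jmjd1c 1 to 3, which is -0.89 ± 0.09 (SE) on the log2 scale (limma, adjusted p = 0.00407). The LSK markers Kit (4778 to 7268), Ly6a (694 to 915) and Cd34 (7850 to 8815) were present in all 7 libraries, as were neutrophil granule genes such as S100a8 (2204 to 4650) and Ngp (2002 to 3925), while Ly6g of the same list was at 0 in 5 of the 7. Summed markers of basophils and mast cells were lower in the Jmjd1c libraries (2204 to 4628 over 7 genes) than in controls (5686 to 8811), as were those of mature neutrophils (6646 to 9612 against 9654 to 13011 over 8 genes) and B cells (388 to 434 against 450 to 542 over 7 genes). None of the markers in these 3 lists was at 0 in all libraries. The sums for T cells and erythroid cells overlapped between the groups. The plasma cell sum was 17736 to 23622 in controls and 11641, 9716 and 29310 in Jmjd1c 1 to 3, so that Jmjd1c 3 stood above all controls and the other Jmjd1c libraries below them. The megakaryocyte sum over 7 genes was 678 to 808 in controls and 747, 877 and 1107 in Jmjd1c 1 to 3, and 1 of its genes, Itga2b, was called higher (260 to 294 against 341 to 483). In the basophil and mast cell list 1 gene was called lower. Control 4 held 7779 over 8 macrophage markers, against 1603 to 2954 in the other 6 libraries. The part of these cells in the results below was not tested. In bulk samples fewer cells of a type and less RNA per cell cannot be told apart.

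Of the 38 genes, 4 rose in the Jmjd1c libraries and none fell: Srsf4 and Srsf6 among the SR proteins, and Raly and Hnrnpl among the hnRNPs (limma, Benjamini-Hochberg adjusted p under 0.05 over all 12813 genes). That is 10.5% of the members, where 1.51% of all tested genes rose and 0.289% fell. The other 34 members did not pass. edgeR on the recovered reads called the same 4 genes, where it called 1.54% of all genes higher. DESeq2 called these 4 and 3 more, Srsf1, Srrm2 and Hnrnpm, all higher, where it called 4.18% higher, 1.03% lower and 5.21% in either direction of the 11317 genes to which it gave an adjusted p. Neither edgeR nor DESeq2 called a member lower, and no member had an unadjusted p under 0.05 in the lower direction, where 7.84% of all tested genes did. In the higher direction 13 members had an unadjusted p under 0.05, 34.2% of the members against 11.9% of all tested genes. In 12 members all 3 Jmjd1c libraries lay above all 4 controls, where 9.74% of the tested genes did so, and in 1 member, Srsf3, all 3 lay below, where 7.1% did (16.8% in either direction).

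The median log2 fold change was 0.04 for the 16 SR members and 0.05 for the 22 hnRNP members, against -0.01 for all tested genes. Summed over the SR members the normalized read count was 21184 to 22952 in controls and 21340 to 21684 in the Jmjd1c libraries, which lay inside the control range. Summed over the hnRNP members it was 32538 to 35414 in controls and 35194 to 36068 in the Jmjd1c libraries, so the groups overlapped there too, but such a sum is carried by the genes with most reads. The median deviation of the hnRNP members from their control mean, on the log2 scale, was 0.06, -0.01, -0.01 and -0.03 in controls 1 to 4 and 0.07, 0.08 and 0.12 in Jmjd1c 1 to 3. All 3 Jmjd1c libraries lay above all controls in it, though Jmjd1c 1 lay close to control 1. For the SR members it was 0.09, -0.01, -0.04 and -0.04 in controls and 0.03, 0.04 and 0.00 in Jmjd1c libraries, inside the control range. The members also varied little between control libraries: the median coefficient of variation was 8.85% for the SR members and 5.68% for the hnRNPs, against 11.1% for all tested genes, whose median level was lower (158 against 1217 and 705.5 normalized read counts).

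**Figure D1:**
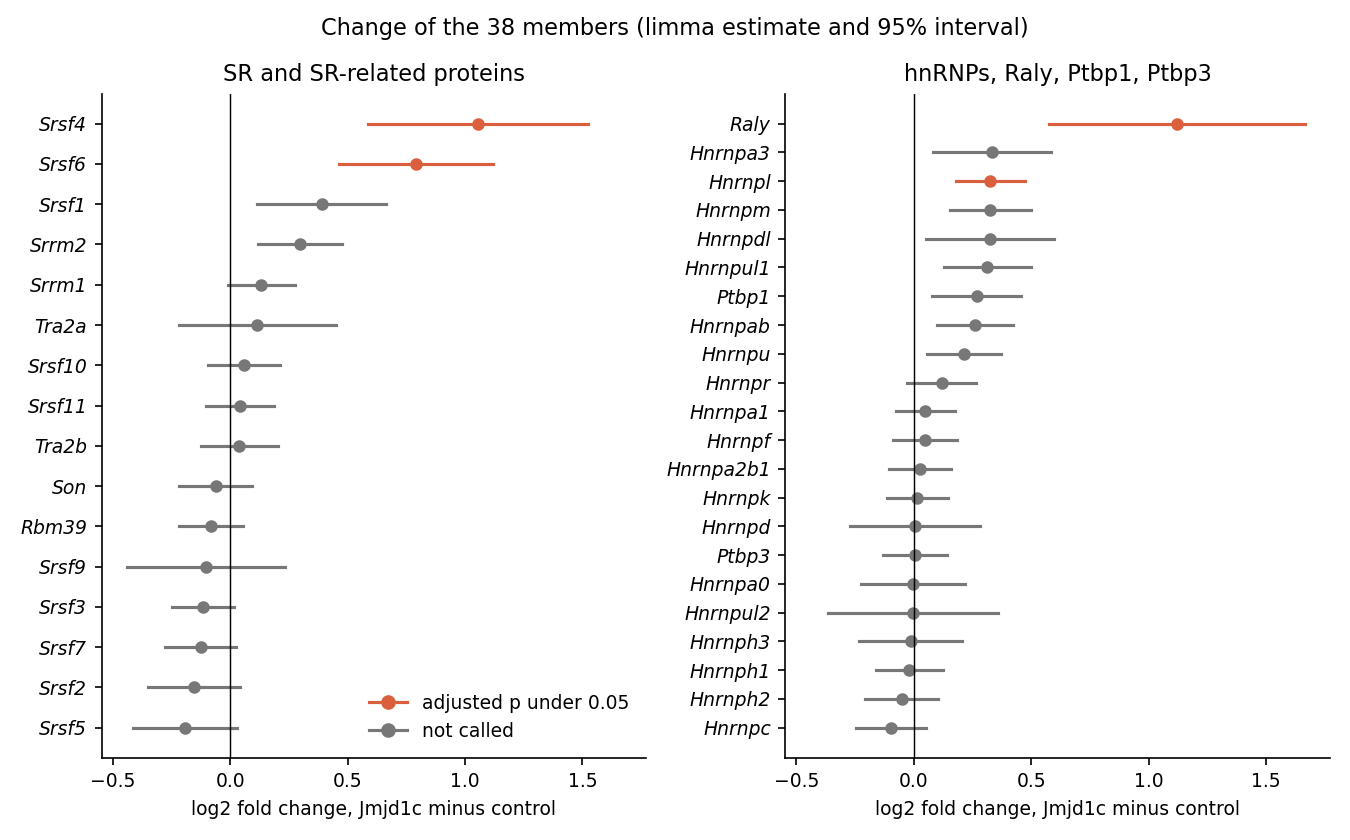
Log2 fold change (Jmjd1c minus control, limma) of each member on the x axis, with its 95% interval as a bar, SR members left and hnRNP members right. The 4 coloured genes, Srsf4, Srsf6, Raly and Hnrnpl, are those called after adjustment over all 12813 tested genes, and most other members lie near 0.

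Promoter sequences of the 4 genes that rose are shown so that their base composition can be set beside the values. Each run holds the 250 bases before the start site of the RefSeq transcript, 5′ to 3′ on the gene's strand (GRCm38.p6, all on the plus strand): chr4:131873387-131873636 for Srsf4, the first of its 3 listed starts, chr2:162931258-162931507 for Srsf6, chr2:154790860-154791109 for Raly and chr7:28810640-28810889 for Hnrnpl. Capitals mark matches, on either strand, to the GC box (GGGCGG), the CCAAT box (CCAAT) and the ETS core (CCGGAA).
Srsf4: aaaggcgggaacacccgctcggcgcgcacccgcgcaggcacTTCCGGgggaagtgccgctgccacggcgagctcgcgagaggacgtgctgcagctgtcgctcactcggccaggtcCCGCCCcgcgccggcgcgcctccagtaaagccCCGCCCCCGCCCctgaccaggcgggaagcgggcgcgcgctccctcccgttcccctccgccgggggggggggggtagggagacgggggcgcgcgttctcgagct
Srsf6: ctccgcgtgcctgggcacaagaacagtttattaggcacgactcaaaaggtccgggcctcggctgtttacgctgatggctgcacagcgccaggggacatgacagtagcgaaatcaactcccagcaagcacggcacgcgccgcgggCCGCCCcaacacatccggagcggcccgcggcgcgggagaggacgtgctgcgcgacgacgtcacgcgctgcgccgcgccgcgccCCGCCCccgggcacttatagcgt
Raly: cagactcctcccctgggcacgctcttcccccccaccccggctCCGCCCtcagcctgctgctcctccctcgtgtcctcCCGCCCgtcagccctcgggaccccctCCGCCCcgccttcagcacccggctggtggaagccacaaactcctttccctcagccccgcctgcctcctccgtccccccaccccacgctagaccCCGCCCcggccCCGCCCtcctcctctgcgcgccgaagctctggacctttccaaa
Hnrnpl: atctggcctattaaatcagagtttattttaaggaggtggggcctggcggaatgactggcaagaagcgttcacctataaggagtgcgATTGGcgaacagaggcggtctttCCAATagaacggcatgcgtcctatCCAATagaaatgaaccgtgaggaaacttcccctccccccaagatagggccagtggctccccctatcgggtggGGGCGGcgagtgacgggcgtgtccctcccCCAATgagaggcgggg

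All 4 windows held a GC box, as did 72% of the 50 windows listed for 36 of the members and 32.7% of the 32851 windows of all genes. Of the 4, only the Hnrnpl window held a CCAAT box, which was present in 50% of the member windows and 33.9% of all windows. Only the Srsf4 window held an ETS core, found in 30% of the member windows and 12% of all windows. None of the 4 held the MYC-type E-box CACGTG, the NRF1 site, the CRE TGACGTCA or the TATA box TATAAA, which says only that these letters are not in these windows. The GC content was 77.2% in the Srsf4 window, 68.4% in Srsf6, 72.8% in Raly and 56.4% in Hnrnpl, where the median was 65% over the member windows and 52.4% over all windows. The Hnrnpl window ends at 28810889, inside the gene as annotated (28808541 to 28822266). The other windows shown end near the annotated start of their genes. A match is a string of letters and not evidence of a bound factor.

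Of the 10 classical SRSF genes, Srsf4 and Srsf6 rose and 8 did not pass. Srsf4 (ENSMUSG00000028911; mm10 chromosome 4, 131873617 to 131901706, plus strand) encodes SRp75, a regulator of alternative exon inclusion. It had 109.6, 128, 90.9 and 81.3 normalized read counts in controls 1 to 4 and 156, 198 and 303 in Jmjd1c 1 to 3. Every Jmjd1c library lay above every control, and Jmjd1c 3 was the highest. The mean went from 102 ± 20.7 (SD, n = 4) to 219 ± 75.5 (SD, n = 3), a log2 fold change of 1.06 ± 0.21 (SE; 2.08-fold; limma, adjusted p = 0.0386). A transcript on the opposite strand, Gm12992, overlaps 43.0% of the exon bases of Srsf4, and its own value was 111 to 147 in controls and 146, 181 and 234 in Jmjd1c 1 to 3. The cDNA was made with a SMARTer Ultra Low kit. No source used here says that strand was kept or counted, or how reads over exons of both genes were handled. Whether reads of Gm12992 add to the Srsf4 value, or reads over both genes were left out, cannot be settled.

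Srsf6 (ENSMUSG00000016921; mm10 chromosome 2, 162931528 to 162937121, plus strand) encodes SRp55, a close relative of SRp75. It had 309, 399, 404 and 390.0 normalized read counts in controls 1 to 4 and 506, 640 and 836 in Jmjd1c 1 to 3. The groups did not overlap, and control 1 was the lowest library. The log2 fold change was 0.79 ± 0.15 (SE; 1.73-fold; limma, adjusted p = 0.0343), with means of 376 ± 45.0 (SD, n = 4) and 661 ± 166 (SD, n = 3).

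Srsf5, which encodes SRp40 and belongs to the same subgroup with a pair of RNA recognition motifs, did not pass. It had 2563, 2026, 2422 and 2215 normalized read counts in controls 1 to 4 and 2056, 1733 and 2284 in Jmjd1c 1 to 3. The groups overlapped, and the log2 fold change was -0.19 (95% interval -0.41 to 0.03; limma, adjusted p = 0.314). The difference itself was tested within libraries, for 7 pairs of relatives chosen after the values were seen. The log2 ratio of Srsf4 to Srsf5 was -4.50 ± 0.36 in controls (SD, n = 4) and -3.25 ± 0.41 in Jmjd1c libraries (SD, n = 3; exact permutation p = 0.0286, adjusted p = 0.0667 over the 7 pairs). That of Srsf6 to Srsf5 was -2.62 ± 0.30 and -1.63 ± 0.33 (SD, n = 4 and 3; exact permutation p = 0.0286, adjusted p = 0.0667). The exact p of 0.0286, two-sided on the absolute difference, is the smallest that the 35 splits of 7 libraries allow. The groups overlapped in neither ratio. With the exact p at its smallest, the adjusted value follows from the number of pairs and from how many of them share that p. It tells nothing more about these ratios.

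**Figure D2:**
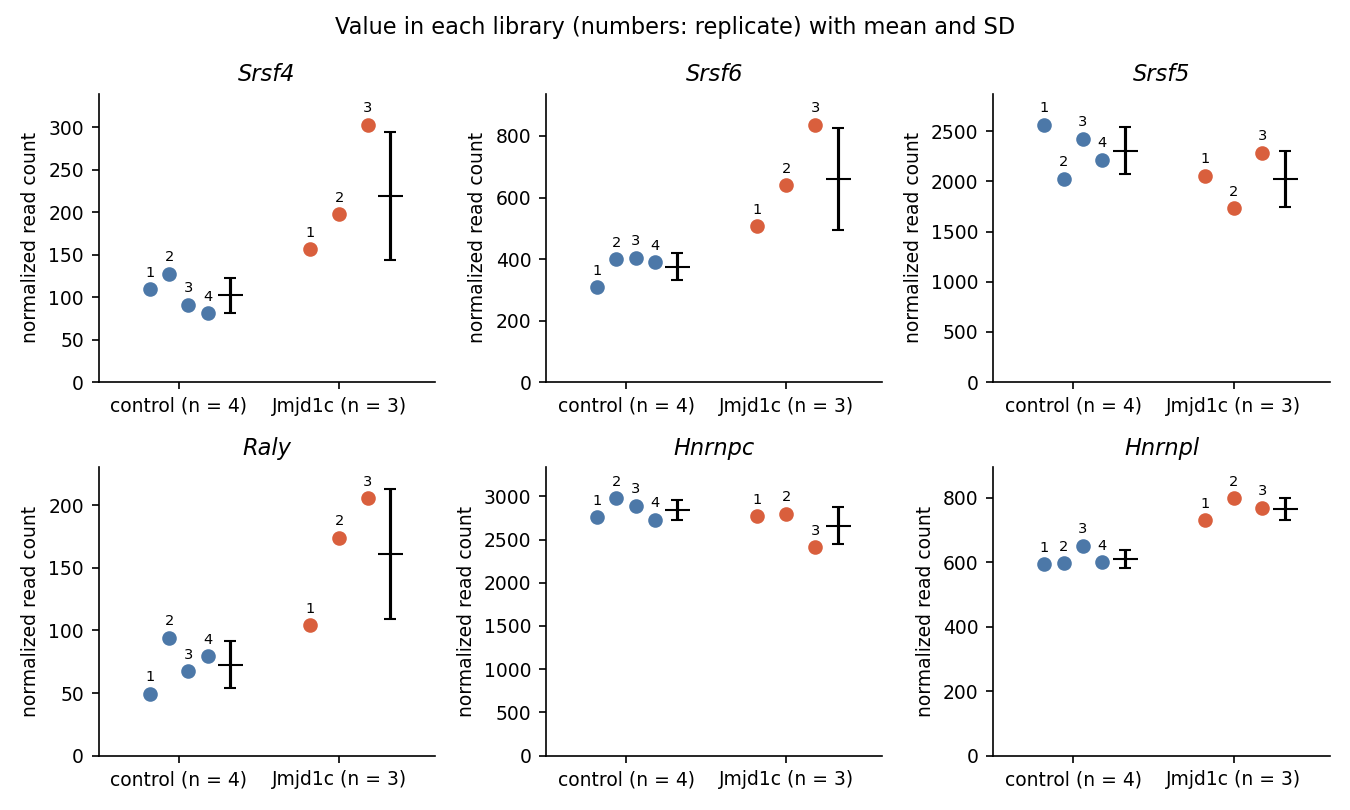
Normalized read count (y axis, from 0) in each library of Srsf4, Srsf6, their relative Srsf5, Raly, its relative Hnrnpc, and Hnrnpl; points are libraries numbered by replicate, and bars give mean and SD. In Srsf4, Srsf6, Raly and Hnrnpl the Jmjd1c points all lie above the control points, while in Srsf5 and Hnrnpc the groups overlap.

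The other SRSF genes did not pass. Srsf1, the founding splicing factor of the family, had 570.4, 492, 458 and 473 normalized read counts in controls 1 to 4 and 514, 732 and 735 in Jmjd1c 1 to 3. Jmjd1c 1 lay inside the control range and the other Jmjd1c libraries above it. Srsf1 differed by 0.39 ± 0.13 on the log2 scale (limma, adjusted p = 0.127, and 0.0449 in DESeq2, with 0.0142 to 0.389 over its 18 alternatives). Srsf9, which resembles Srsf1, had 69.6 to 92.9 normalized read counts in controls and 68.1 to 87.6 in Jmjd1c libraries, or -0.10 as log2 fold change (95% interval -0.44 to 0.23, limma adjusted p = 0.743). The log2 ratio of Srsf1 to Srsf9 differed by 0.49 between the groups, which overlapped (exact permutation p = 0.0857, adjusted p = 0.12).

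Srsf7, a factor that also serves mRNA export, had the highest level per length of the SR members, with 1337 ± 62.9 normalized read counts per kilobase of annotated exon in controls (SD, n = 4) and 1228 ± 101 in Jmjd1c libraries (SD, n = 3). Its values were 5063, 4744, 4591 and 4586 normalized read counts in controls 1 to 4 and 4509.8, 4615 and 3950 in Jmjd1c 1 to 3. Only Jmjd1c 2 lay inside the control range, and the log2 fold change was -0.13 (95% interval -0.28 to 0.03; limma, adjusted p = 0.338). Srsf3, the smallest SR protein, had 2570, 2366, 2344 and 2347 in controls 1 to 4 and 2304, 2251 and 2111 in Jmjd1c 1 to 3. It was the one member whose Jmjd1c libraries all lay below the controls, by a log2 fold change of -0.11 that did not pass (95% interval -0.25 to 0.02; limma, adjusted p = 0.318). Srsf2, a binder of exonic enhancers, had 1433 to 1841 in controls and 1331 to 1559 in Jmjd1c libraries (log2 fold change -0.15, limma adjusted p = 0.369). Exons of Mettl23 on the opposite strand overlap 15.6% of the exon bases of Srsf2. Srsf10, a repressor of splicing when dephosphorylated, had 0.06 and Srsf11 had 0.04, both on the log2 scale and with intervals from -0.10 to 0.21 and from -0.10 to 0.19.

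Per length, Srsf4 and Srsf6 were minor members of the group. Among the 10 SRSF genes, Srsf4 and Srsf6 together made up 2.70% to 3.74% of the summed normalized read count per kilobase of exon in the controls. In Jmjd1c 1 to 3 they made up 4.65%, 5.88% and 8.26%. Srsf7 was followed per kilobase by Srsf5 (578 ± 58.9 in controls, SD, n = 4) and Srsf2 (545 ± 61.4), which did not differ beyond their spread, and by Srsf3 (305 ± 13.8). Srsf4 (28.8 ± 5.80) was the lowest of the 10, below Srsf9 (50.5 ± 6.03). The length used for Srsf4 includes the 43.0% of its exon bases that Gm12992 overlaps. Its level, its place and its share therefore depend on how reads there were counted.

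Of the SR-like TRA2 proteins, which bind GAA-rich exonic enhancers, neither passed. Tra2a had a log2 fold change of 0.12 (95% interval -0.22 to 0.45), with 101 to 147 normalized read counts in controls and 113 to 150.3 in Jmjd1c libraries. Tra2b, the more abundant one per kilobase (137 ± 12.2 against 17.1 ± 2.84 in controls, SD, n = 4), had 0.04 (95% interval -0.12 to 0.20).

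The SR-related proteins of nuclear speckles, the bodies in which splicing factors gather, did not pass either. Srrm2, a scaffold of the speckle, had 871, 742, 718 and 756 normalized read counts in controls 1 to 4 and 872, 975 and 999 in Jmjd1c 1 to 3. The groups did not overlap, but control 1 and Jmjd1c 1 were nearly equal. The log2 fold change of Srrm2 was 0.30 ± 0.08 (limma, adjusted p = 0.0845, and 0.0429 in DESeq2, with 0.0429 to 0.293 over its 18 alternatives). Srrm1, a splicing coactivator, also lay above the controls in all 3 Jmjd1c libraries (1235 to 1365 against 1121 to 1225), with a log2 fold change of 0.13 (95% interval -0.01 to 0.28; limma, adjusted p = 0.288). The second speckle scaffold, Son, had a log2 fold change of -0.06 (95% interval -0.22 to 0.09), and Rbm39, which resembles the U2AF splice site factor, had -0.08 (95% interval -0.22 to 0.05).

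Among the hnRNPs the largest change was that of Raly (ENSMUSG00000027593; mm10 chromosome 2, 154791096 to 154867261, plus strand), an RNA-binding protein related to hnRNP C. Raly had 49.6, 94.1, 67.6 and 79.6 normalized read counts in controls 1 to 4 and 104, 174 and 205 in Jmjd1c 1 to 3. The groups did not overlap, but Jmjd1c 1 lay close to control 2. The mean went from 72.7 ± 18.9 (SD, n = 4) to 161 ± 51.8 (SD, n = 3), a log2 fold change of 1.12 ± 0.25 (SE; 2.17-fold; limma, adjusted p = 0.0481). Hnrnpc, which binds uridine tracts and is far more abundant per kilobase (657 ± 26.7 against 22.1 ± 5.73 in controls, SD, n = 4), had 2731 to 2976 normalized read counts in controls and 2769, 2798 and 2413 in Jmjd1c 1 to 3. On the log2 scale the fold change was -0.10 (95% interval -0.24 to 0.05; limma, adjusted p = 0.454). The log2 ratio of Raly to Hnrnpc was -5.30 ± 0.36 in controls (SD, n = 4) and -4.09 ± 0.59 in Jmjd1c libraries (SD, n = 3), with no overlap (exact permutation p = 0.0286, adjusted p = 0.0667 over the 7 pairs). This pair too was chosen after the values were seen, and its exact p is the smallest possible.

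Hnrnpl (ENSMUSG00000015165; mm10 chromosome 7, 28808541 to 28822266, plus strand), which binds CA repeats, rose by a small and even amount. It had 594, 596, 650.4 and 599.9 normalized read counts in controls 1 to 4 and 729, 798 and 769 in Jmjd1c 1 to 3. All Jmjd1c libraries lay above all controls, and the log2 fold change was 0.33 ± 0.07 (SE; 1.25-fold; limma, adjusted p = 0.0406). Its relative Hnrnpll had a log2 fold change of 0.35 with a wider interval (-0.04 to 0.74), at 69.9 to 96.6 in controls and 93.8 to 143 in Jmjd1c libraries. The log2 ratio of Hnrnpl to Hnrnpll did not differ beyond its spread (2.83 ± 0.26 in controls, SD, n = 4, and 2.80 ± 0.34 in Jmjd1c libraries, SD, n = 3; exact permutation p = 0.914, adjusted p = 0.914).

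Hnrnpm, which binds GU-rich sites, just missed the threshold. It had 2915, 2782, 2671 and 2508 normalized read counts in controls 1 to 4 and 3033, 3516 and 3697 in Jmjd1c 1 to 3, with no overlap. The log2 fold change was 0.33 ± 0.08 (limma, adjusted p = 0.0576, and 0.00459 in DESeq2, with 0.00459 to 0.248 over its 18 alternatives). Exons of March2 on the same strand overlap 14.7% of the exon bases of Hnrnpm. Hnrnpr, a relative of SYNCRIP, had a log2 fold change of 0.12 (95% interval -0.03 to 0.27).

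Hnrnpk, the KH-domain hnRNP that binds cytosine-rich RNA, had the highest level per kilobase of the hnRNPs (1319 ± 64.9 in controls, SD, n = 4, and 1331 ± 7.20 in Jmjd1c libraries, SD, n = 3). It had 9114, 8464, 8421 and 8116 normalized read counts in controls 1 to 4 and 8660.4, 8570.1 and 8596 in Jmjd1c 1 to 3, all inside the control range. The log2 fold change was 0.01 with a narrow interval of -0.11 to 0.14 (limma, adjusted p = 0.915). Hnrnpa2b1, a reader of RNA sorting signals, followed at 1049 ± 56.9 per kilobase in controls (SD, n = 4), and then Hnrnpc.

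In the A group, whose members silence exons through purine-rich motifs, no gene passed in limma. Hnrnpa1, the best known splicing silencer of the family, had a log2 fold change of 0.05 (95% interval -0.08 to 0.18), Hnrnpa2b1 had 0.03 (-0.11 to 0.16) and Hnrnpa0 had 0.00 (-0.22 to 0.22). Hnrnpa3 had 0.33 ± 0.11 (limma, adjusted p = 0.147), with 485 to 690 normalized read counts in controls and 672 to 749 in Jmjd1c libraries. Control 1 was inside the Jmjd1c range. Among the D group, factors of AU-rich mRNA decay as well as splicing, Hnrnpab lay at 355 to 390.4 in controls and at 468, 438 and 447 in Jmjd1c 1 to 3. Its log2 fold change of 0.26 ± 0.07 did not pass (limma, adjusted p = 0.0907), and exons of Phykpl on the opposite strand overlap 29.1% of its exon bases. Hnrnpdl had 0.33 ± 0.12 (limma, adjusted p = 0.184), with 1122 in Jmjd1c 3 against 741 and 780.0 in Jmjd1c 1 and 2, and Hnrnpd had 0.01 (95% interval -0.27 to 0.28).

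No gene of the F and H group, which binds runs of guanine, passed in limma, edgeR or DESeq2 or had an unadjusted p under 0.05. Hnrnpf, Hnrnph1, Hnrnph2 and Hnrnph3 had log2 fold changes of 0.05, -0.02, -0.05 and -0.01, and their 95% intervals lay between -0.23 and 0.21. In the U group Hnrnpu, a nuclear scaffold protein, had 938 to 1145 normalized read counts in controls and 1183, 1200.5 and 1187 in Jmjd1c 1 to 3, or 0.21 ± 0.07 as log2 fold change (limma, adjusted p = 0.142). Hnrnpul1 had 302 to 346 in controls and 371 to 431 in Jmjd1c libraries (0.31 ± 0.08, limma adjusted p = 0.0804), whereas Hnrnpul2 had 0.00 (95% interval -0.36 to 0.36). The log2 ratio of Hnrnpul1 to Hnrnpul2 was 2.02 ± 0.21 in controls (SD, n = 4) and 2.34 ± 0.10 in Jmjd1c libraries (SD, n = 3; exact permutation p = 0.0571, adjusted p = 0.1).

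Of the polypyrimidine tract binding proteins, Ptbp1, the general repressor of tissue-specific exons, had 1304, 1465, 1097 and 1288 normalized read counts in controls 1 to 4 and 1507, 1521 and 1604 in Jmjd1c 1 to 3. The groups did not overlap, and the log2 fold change of 0.27 ± 0.09 did not pass (limma, adjusted p = 0.132). Ptbp1 has a GC content of 56.2%, and with GC content and length adjusted for it had 0.14 (limma, adjusted p = 0.402, in a fit described below). Ptbp3, its relative in blood cells, had 0.01 (95% interval -0.13 to 0.14). The log2 ratio of Ptbp1 to Ptbp3 differed by 0.26 between groups that overlapped (exact permutation p = 0.114, adjusted p = 0.133).

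**Figure D3:**
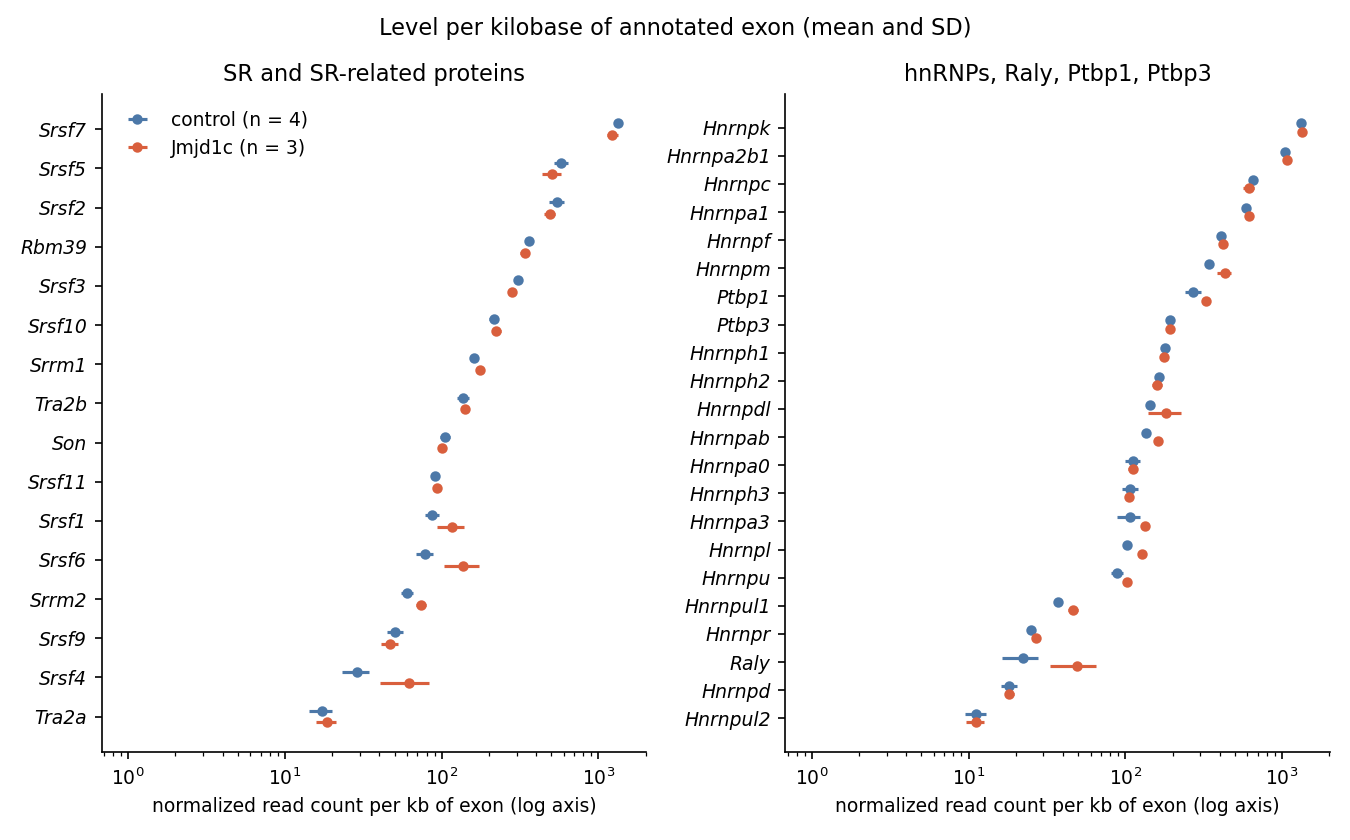
Normalized read count per kilobase of annotated exon (x axis, log scale) of each member in control (n = 4) and Jmjd1c (n = 3) libraries, as mean and SD, ordered by the control mean. Srsf7 and Hnrnpk lead their families, and Srsf4 and Raly, which changed most, stand near the bottom.

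The 3 Jmjd1c libraries differed among themselves. Of the 13 members with an unadjusted p under 0.05, Jmjd1c 1 was the lowest of the 3 libraries in 12 and Jmjd1c 3 the highest in 10. In the 4 genes that rose, Jmjd1c 1 was the lowest in all 4 and Jmjd1c 3 the highest in 3. The megakaryocyte marker sum was also lowest in Jmjd1c 1 and highest in Jmjd1c 3, but its genes did not all keep this order. Itgb3 and Vwf did, whereas Pf4, Gp9 and Ppbp were lowest in Jmjd1c 2 and Itga2b was highest there. Gp1bb was at 0 in all 3. The part of these genes in the result was not tested. Without Jmjd1c 1 the log2 fold changes were 1.27 for Srsf4, 0.97 for Srsf6, 1.40 for Raly and 0.36 for Hnrnpl, and without Jmjd1c 3 they were 0.80, 0.61, 0.92 and 0.32. None of the 4 was called without control 1, control 2, control 3, Jmjd1c 2 or Jmjd1c 3 (limma, adjusted p from 0.0538 to 0.230), and without control 4 all but Hnrnpl were called. Over the 18 alternatives the adjusted p ran from 0.000115 to 0.187 for Srsf4, from 1.92e-05 to 0.181 for Srsf6, from 0.000477 to 0.230 for Raly and from 0.00897 to 0.212 for Hnrnpl.

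**Figure D4:**
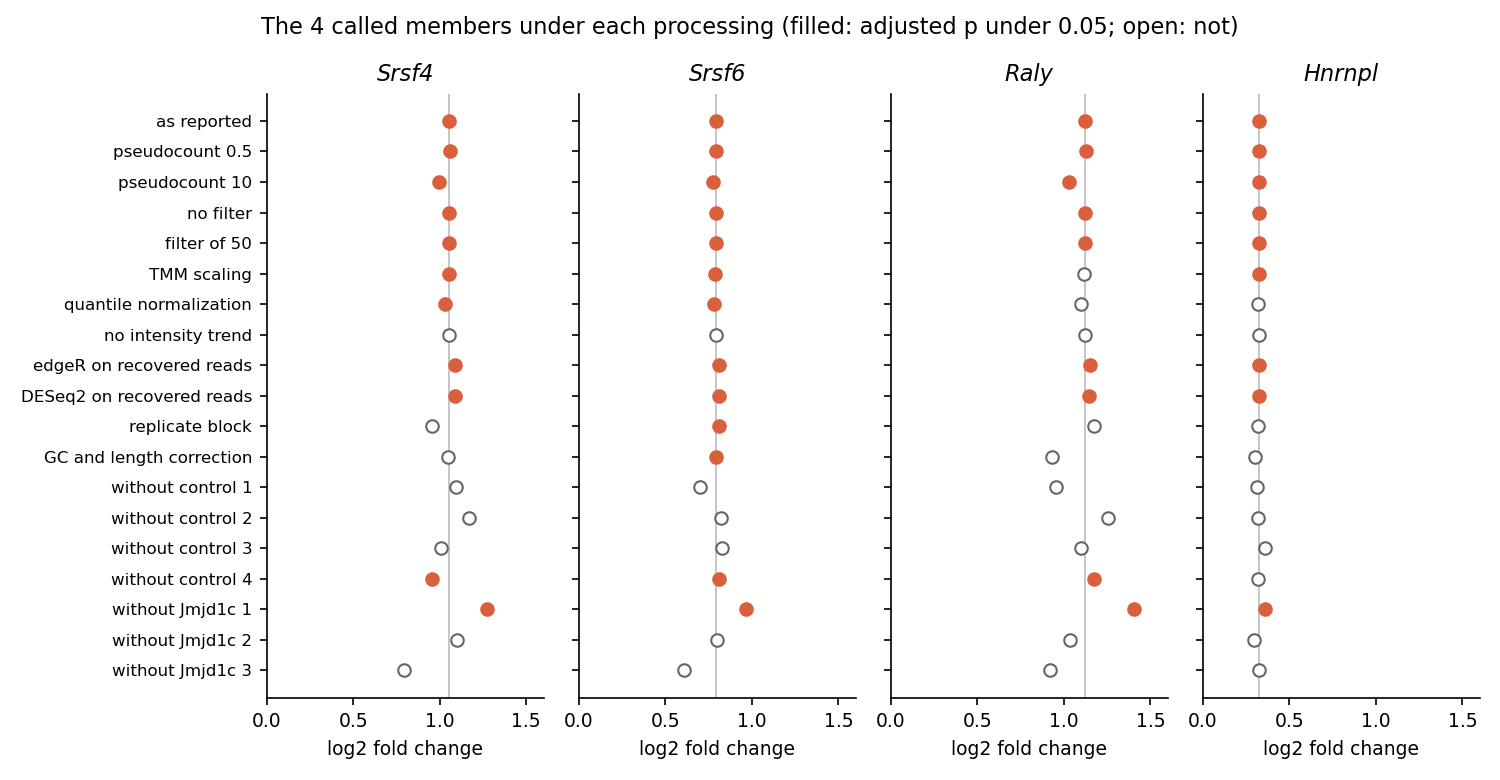
Log2 fold change (x axis) of Srsf4, Srsf6, Raly and Hnrnpl under each processing (rows), filled where the adjusted p was under 0.05 and open where it was not; the grey line marks the reported value. All points lie above 0, from 0.30 to 1.40, and calls are lost in most fits that leave out a library.

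The 4 genes that rose were also among the GC-rich members. Their transcripts had a GC content of 52.4% (Srsf4), 50.5% (Srsf6), 58.9% (Raly) and 51.8% (Hnrnpl), where the median was 44.9% over the 34 other members and 50.3% over all tested genes. Of the 10 members with a GC content of at least 50%, 9 had a log2 fold change above 0, with a median of 0.31, while the 28 others had a median of 0.01 and 16 above 0. Pearson's r between GC content and log2 fold change was 0.575 across the 38 members and 0.265 across 12677 tested genes, which share the same 7 libraries and are not independent replicates. When each library was adjusted for GC content and the annotated exon length of each gene, Srsf6 kept 0.79 (limma, adjusted p = 0.0453) and Srsf4 kept 1.05 (adjusted p = 0.0517). Raly went to 0.93 (adjusted p = 0.0751) and Hnrnpl to 0.30 (adjusted p = 0.0686). Thus 1 of the 38 members was called, where 0.521% of all genes were called higher and 0.655% in either direction. The median over the hnRNP members was 0.11 after that adjustment, and over the SR members it was 0.08. The values of 20 of the 38 members moved by over 1.5 times or changed sign, none of them among the 4 that rose. Srsf7 went from -0.13 to -0.01, Hnrnpc from -0.10 to 0.00, Srsf9 from -0.10 to 0.00, Srsf5 from -0.19 to -0.11 and Srsf3 from -0.11 to -0.06. Of the 13 members below 0, 3 (Hnrnph1, Hnrnph2 and Hnrnph3) turned above 0, and none turned the other way.

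**Figure D5:**
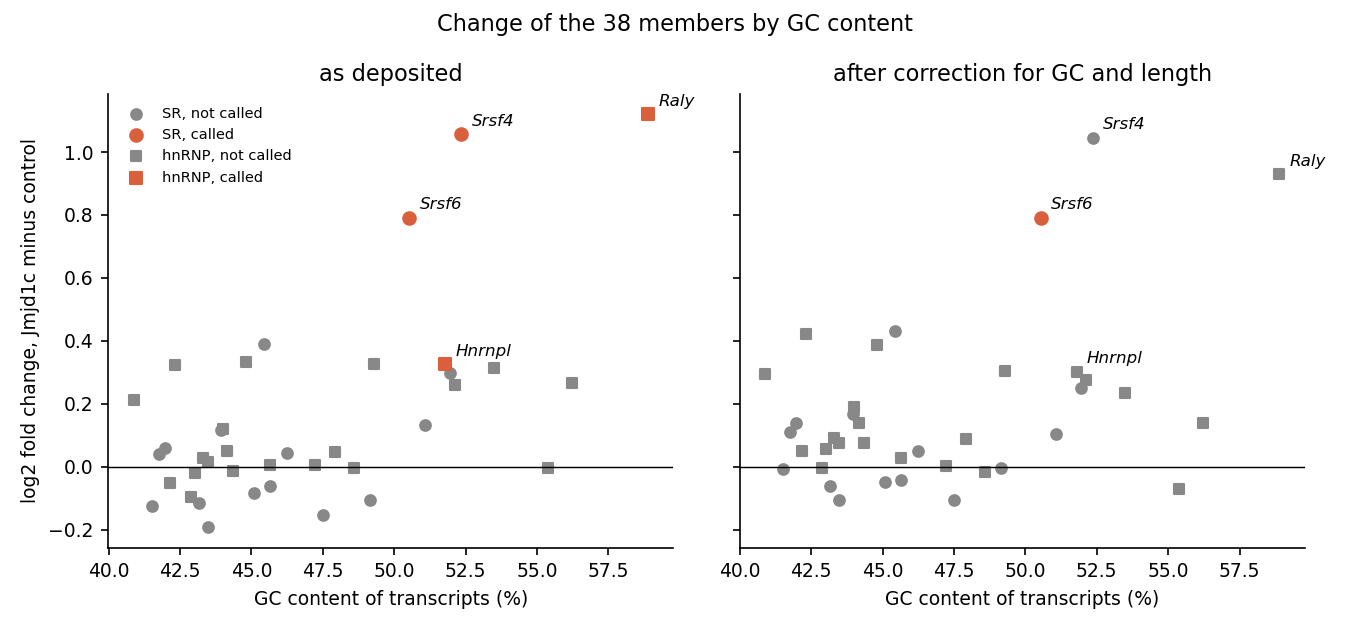
Log2 fold change of the 38 members (y axis) against the GC content of their transcripts (x axis), from the deposited values at left and after adjustment of each library for both GC content and length at right; circles are SR members, squares hnRNP members, and colour marks an adjusted p under 0.05. Srsf4, Srsf6, Raly and Hnrnpl stand at a GC content above 50% in both panels, and after the adjustment Srsf6 alone is coloured.

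The kinases that phosphorylate SR proteins mostly had values below 0, and none passed in limma. Of 8 kinase genes 7 had a log2 fold change below 0 (median -0.17), as did 51.5% of all tested genes. In limma 0 were called, and 4 had an unadjusted p under 0.05, all lower, where 7.84% of all tested genes did. edgeR called 0 and DESeq2 called 1 lower, where it called 1.03% lower. Clk1, a kinase that releases SR proteins from speckles, had 1382, 1359, 1532 and 1575 normalized read counts in controls 1 to 4 and 1271, 1126 and 1081 in Jmjd1c 1 to 3. The groups did not overlap, and the log2 fold change was -0.33 ± 0.08 (limma, adjusted p = 0.0538, and 0.00599 in DESeq2, with 0.00599 to 0.237 over its 18 alternatives). Clk1 has a GC content of 39.5%, and with GC content and length adjusted for it had -0.23 (limma, adjusted p = 0.112). Prpf4b, a kinase of the spliceosome, had 540.0 to 627 in controls and 467 to 504 in Jmjd1c libraries, or -0.26 ± 0.08 as log2 fold change (limma, adjusted p = 0.111). Srpk1, the main cytoplasmic SR kinase, had 0.03 (95% interval -0.10 to 0.17).

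Of the 10 nonsense-mediated decay factors, which remove transcripts with a poison exon, Upf1 rose and 9 did not pass, where 1.51% of all tested genes rose. At an unadjusted p under 0.05 there were 4, all higher (Upf1, Smg5, Smg8 and Smg9), where 11.9% of all tested genes were. Upf1, the helicase at the core of the pathway, had 197, 191, 179 and 211 normalized read counts in controls 1 to 4 and 254, 285 and 264 in Jmjd1c 1 to 3. The groups did not overlap, and the log2 fold change was 0.46 ± 0.09 (limma, adjusted p = 0.0386). Its transcripts have a GC content of 57.9%, and with GC content and length adjusted for, its value was 0.28 on the log2 scale (limma, adjusted p = 0.151, with 0.0163 to 0.212 over its 18 alternatives). The median of the 10 was 0.16.

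None of the 3 transportins, which carry hnRNPs and SR proteins into the nucleus, was called by limma, edgeR or DESeq2, where limma called 1.8% of all tested genes, and 1 had an unadjusted p under 0.05 in the higher direction, where 11.9% did. Tnpo2 had 146 to 170.4 normalized read counts in controls and 172 to 222 in Jmjd1c libraries (log2 fold change 0.36 ± 0.12, limma adjusted p = 0.139). Tnpo1 had 0.13 (95% interval -0.03 to 0.28). Of 37 other splicing regulators limma and edgeR called 0 and DESeq2 called 5, 4 of them higher, and at an unadjusted p under 0.05 limma had 9 higher and 6 lower (median log2 fold change 0.00). The genes called by DESeq2 were Ewsr1, Khdrbs1, Pcbp1 and Syncrip, all higher, and Luc7l2, which was lower. Over all genes the shares were 4.18% higher and 1.03% lower in DESeq2, and 11.9% and 7.84% at the unadjusted p. Ewsr1, an RNA-binding protein of the FET family, had 966, 882, 719 and 716 in controls 1 to 4 and 1011, 1237 and 1594 in Jmjd1c 1 to 3, or 0.63 ± 0.15 as log2 fold change (limma, adjusted p = 0.0538). Elavl1, which encodes the mRNA-stabilizing protein HuR, had 252 to 312 in controls and 324 to 370 in Jmjd1c libraries (0.37 ± 0.10, limma adjusted p = 0.0749, and 0.0631 in DESeq2). In both of these genes the groups did not overlap. Over the 58 genes of these 4 lists the median log2 fold change was 0.00, and 1 was called (1.72%), where 1.8% of all tested genes were.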

How the data were processed

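Gene-level RNA sequencing values of 4 control and 3 Jmjd1c libraries were used. The deposited signal per gene is a read count that the authors divided by a size factor per library. Trim Galore 0.2.8, STAR, HTSeq 0.6.1p1, DESeq 1.18.0 and build mm10 are listed, per the submitters' processing notes. No label or header states the annotation release, strand setting or filters. In every library 100% of the deposited signal values above 0 were whole multiples of 1 step (tolerance 0.01 of a read), which returned the whole reads. Symbols matched 37607 of 39179 IDs, and positions, exon lengths and GC content came from GENCODE M21 on GRCm38.

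The test was limma-trend (limma 3.58.1, R 4.3.3) on log2(value + 1) for genes that reached 10 in 3 or more libraries, with no further scaling and no covariate, and Benjamini-Hochberg adjustment over all 12813 genes. Fold changes on this scale understate those of low genes. edgeR 4.0.16 and DESeq2 1.42.0 were run on the recovered reads as alternatives. Of the fits, only limma, limma with GC content and length adjusted for, edgeR and DESeq2 were run on simulated data. The other alternatives and the permutation tests were not. Levels per kilobase use the union of annotated exons.

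Members and lists were chosen with earlier results of these data known. Named genes are the members called by limma, edgeR or DESeq2, the 3 smallest p-values and the highest level per kilobase in each family, their close relatives, the members of each pathway list that passed or else the 2 smallest p-values, and Jmjd1c. Other members are given briefly so that all 38 are accounted for. Genes of the pathway lists named beside these (Srpk1, Hnrnpll, Smg5, Smg8, Smg9, Khdrbs1, Pcbp1, Syncrip, Luc7l2) were chosen after their values were seen. So were single marker genes, the genes that overlap members and the paralogue pairs.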

Additional observations from a re-analysis of the deposited data

Results flagged for a closer look

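Among 47 sets of 4 control values (the 38 members, 7 genes of the pathway lists and both family sums), 4 held a control library far from the other 3, with a gap to its neighbour of 0.849 to 0.979 of the whole range (Dixon's test at the 95% level). Chance flags about 1 set in 20. Hnrnpl was 650.4 normalized read counts in control 3, and the next value was 599.9. Srsf6 was 309 in control 1, with 390.0 as the next value. Srsf3 was 2569.7 in control 1, next to 2366. Ptbp3 was 1330.0 in control 2, next to 1469.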

How the results depend on the processing

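In all 18 alternatives Srsf4, Srsf6, Raly and Hnrnpl stayed above 0 (log2 fold change 0.30 to 1.40). With all libraries 231 genes of the table, 2 SR members, 2 hnRNP members and 1 gene of the pathway lists were called. The SR count was 4 in DESeq2, 1 with GC content and length adjusted for, and 0 in limma without the intensity trend, where 0 genes of the table, 0 hnRNP members and 0 pathway genes were called but 2213 genes and 12 members had an unadjusted p under 0.05. The hnRNP count was 1 with TMM scaling and with quantile normalization (there Hnrnpm was called, and Raly and Hnrnpl each had an adjusted p of 0.0504), and 0 under the GC adjustment. DESeq2 called 590 genes of the table and 7 pathway genes. The GC adjustment left 83 genes and 0 pathway genes, and moved the hnRNP median to 0.11. No filter gave 2 pathway genes and a filter of 50 gave 3. Leaving out 1 library at a time gave 3 to 631 genes of the table, 0 to 4 SR members, 0 to 3 hnRNP members and 0 to 6 pathway genes. The medians ran from 0.01 to 0.07 (SR) and from 0.04 to 0.08 (hnRNP). The cause of these moves was not tested.

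The correlations of deviations from the group means between same-numbered libraries were -0.15, 0.00 and 0.02. Between libraries of different number they ran from -0.17 (control 4 with Jmjd1c 2) to 0.32 (control 4 with Jmjd1c 1). These values give no sign of pairing by replicate number but cannot settle whether libraries were paired. With the replicate number as a block, in which control 4 has no partner, 14 genes of the table, 1 SR member (Srsf6), 0 hnRNP members and 0 pathway genes were called. In that block fit, and without control 4, Hnrnpk turned to -0.00869, and over the fits without 1 library it ran from -0.00869 to 0.0471. At this depth and with 7 libraries, members that did not pass are limited by the intervals given with them.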
